A study of Mus musculus with 14 samples.

Results

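The genes described here are 10 regulators of how many mitochondria a cell makes and how those mitochondria fuse and divide. They were chosen by name from the 23286 genes kept in the deposited kidney tables, and all 10 were found: Ppargc1a, Ppargc1b, Esrra, Esrrg, Nrf1, Tfam, Mfn1, Mfn2, Opa1 and Dnm1l. Bulk RNA was sequenced from whole kidneys of mice aged 9 weeks, 5 h after ischemia-reperfusion (IR) surgery, in which renal blood flow is stopped and then restored, or after a sham operation. The 12 libraries form 4 groups of 3: VE-PTPiKO after IR, VE-PTPiKO after sham, Control after IR and Control after sham. VE-PTP is an endothelial phosphatase encoded by Ptprb that acts on the angiopoietin receptor Tie2. The sources used here do not give the alleles, the Cre driver or the genotype of the Control animals. Each library is labelled as a separate sample, but nothing states that each came from its own mouse, so p-values measure the spread between these samples, which may be technical.

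The kidney tubule is among the tissues richest in mitochondria, because solute reabsorption runs on aerobic ATP production. PGC-1 alpha (Ppargc1a) and PGC-1 beta (Ppargc1b) are coactivators that switch on nuclear genes of mitochondria through the estrogen-related receptors (Esrra, Esrrg) and nuclear respiratory factor 1 (Nrf1), and Tfam carries the program into the organelle by packaging and transcribing mitochondrial DNA. Mitofusins (Mfn1, Mfn2) join outer membranes and Opa1 joins inner membranes, while the dynamin-like GTPase Drp1 (Dnm1l) divides mitochondria. Loss of PGC-1 alpha and a shift of the tubule toward fission are textbook features of acute kidney injury.

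Promoter sequences were available for 9 of the 10 genes, all except Ppargc1b, in 16 windows from 250 bases before to 50 bases after each RefSeq start (build GRCm38.p6). They are shown because these genes are named as targets of one another's factors, and because Ppargc1a, Tfam, Opa1 and Nrf1 were the genes whose IR and sham libraries did not overlap in either genotype. Of all genes tested, 20.6% did not overlap in VE-PTPiKO and 29.4% in Control. The share that did not overlap in both was not computed. The 250 bases before the start are printed 5′ to 3′ on the gene's strand for Ppargc1a (chr5:51567726-51567975, minus), Tfam (chr10:71238045-71238294, minus), Nrf1 at its upstream start (chr6:30047738-30047987, plus), Opa1 (chr16:29579084-29579333, plus) and Mfn1 (chr3:32529232-32529481, plus), with matches to the motifs searched in capitals.
Ppargc1a: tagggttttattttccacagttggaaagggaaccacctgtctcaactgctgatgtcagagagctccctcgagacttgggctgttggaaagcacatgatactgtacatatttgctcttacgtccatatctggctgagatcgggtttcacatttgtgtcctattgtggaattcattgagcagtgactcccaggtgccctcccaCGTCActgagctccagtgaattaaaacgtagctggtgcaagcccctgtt
Tfam: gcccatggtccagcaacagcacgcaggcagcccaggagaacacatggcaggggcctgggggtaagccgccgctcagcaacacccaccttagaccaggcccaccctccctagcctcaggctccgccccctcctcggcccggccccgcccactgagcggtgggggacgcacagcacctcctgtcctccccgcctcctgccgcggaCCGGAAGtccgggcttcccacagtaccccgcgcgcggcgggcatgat
Nrf1: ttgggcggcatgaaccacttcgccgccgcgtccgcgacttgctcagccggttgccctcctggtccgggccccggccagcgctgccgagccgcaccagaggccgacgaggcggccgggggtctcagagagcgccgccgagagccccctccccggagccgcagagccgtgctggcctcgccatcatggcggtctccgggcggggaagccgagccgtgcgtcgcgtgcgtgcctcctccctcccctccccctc
Opa1: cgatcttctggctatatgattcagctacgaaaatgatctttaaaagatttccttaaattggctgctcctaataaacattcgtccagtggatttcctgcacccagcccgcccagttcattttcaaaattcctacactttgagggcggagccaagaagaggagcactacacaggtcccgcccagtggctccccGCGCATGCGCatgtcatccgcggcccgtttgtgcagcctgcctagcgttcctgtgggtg
Mfn1: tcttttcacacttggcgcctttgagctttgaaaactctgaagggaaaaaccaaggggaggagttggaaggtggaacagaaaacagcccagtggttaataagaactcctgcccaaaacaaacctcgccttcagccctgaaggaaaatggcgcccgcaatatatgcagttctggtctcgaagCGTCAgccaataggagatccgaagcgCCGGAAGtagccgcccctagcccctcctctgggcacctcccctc

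The motifs were searched on both strands in all 32851 windows. The 10-base palindromic NRF1 motif, in capitals in the Opa1 line above, was in 0.97% of all windows and in 1 member window, that of Opa1, where it began at position -59 from the RefSeq start. The ETS motif CCGGAAG, bound by the GABP factor (nuclear respiratory factor 2), was in 8.86% of all windows and in those of 3 member genes: Tfam at position -47, Mfn1 at position -44 and Dnm1l at position 12, there as CTTCCGG. The ERR core AAGGTCA was in 4.72% of windows and the full cyclic AMP element TGACGTCA in 1.79%, and neither was in a member window. Its half-site TGACG, which the full element contains, was in 20.8% of windows and in those of 3 member genes, Ppargc1a at position -49, Mfn1 and Mfn2. A match of letters is a description and does not show that a factor binds there. Base composition also differed between the printed stretches, with G and C making up 76.0% of bases for Nrf1, 72.0% for Tfam, 53.6% for Mfn1, 52.0% for Opa1 and 48.0% for Ppargc1a. The RefSeq start of Ppargc1a lay upstream of the gene start in the annotation used for exon lengths, at 51567725 against 51553921 on the minus strand of chromosome 5, so the stretch shown belongs to a distal start. The bases before the annotated gene start of Ppargc1a were not searched, so motifs absent here may be present there.

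Reads assigned to genes ranged from 15427887 to 21296392 per library, and each member had at least 194 reads in every library. Counting error is a part of the spread between libraries. The tubule markers Slc34a1, Lrp2 and Umod were abundant in all 12 libraries, with a lowest value of 3156 CPM (reads scaled to the library total), for Lrp2, as a kidney label requires. Ptprb was at 75.0 to 126 CPM in VE-PTPiKO IR against 112 to 158 CPM in Control IR, and at 117 to 162 CPM in VE-PTPiKO sham against 168 to 246 CPM in Control sham. Its genotype difference did not pass after IR (log2 -0.45, limma adjusted p = 0.99986) or after sham (log2 -0.43, adjusted p = 1). The genotypes did not overlap in CPM after sham and did after IR, and both differences were below 0. The alleles are not given, so how far Ptprb reads of whole kidney should fall is not known, and the cause was not tested. In 3 libraries, Control sham replicate 2, VE-PTPiKO sham replicate 2 and VE-PTPiKO IR replicate 3, the nuclear RNA Malat1 was at 10200, 11520 and 19620 CPM, against 3272 to 5644 CPM in the other 9. Relative to the mean of their group these libraries also tended to have more reads from long transcripts, as did Control IR replicate 3 and VE-PTPiKO sham replicate 3. The members' IR over sham differences without the 3 Malat1-rich libraries are given further on.

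In mm10 coordinates with GENCODE M21 models, Ppargc1a (ENSMUSG00000029167) lies at chr5:51454248-51553921 on the minus strand and Nrf1 (ENSMUSG00000058440) at chr6:30047987-30153458 on the plus strand. Tfam (ENSMUSG00000003923) lies at chr10:71225476-71238044 and Mfn2 (ENSMUSG00000029020) at chr4:147873585-147904909, both on the minus strand. Values are of reads assigned to each gene.

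Per length of exon, the outer-membrane fusion gene Mfn2 was the most abundant member and Nrf1 the least. Levels in RPKM (reads scaled by exon length and library total) had medians over the 12 libraries of 36.3 for Mfn2, 26.6 for Esrra, 26.3 for Opa1, 23.5 for Mfn1, 19.8 for Dnm1l, 12.9 for Tfam, 11.8 for Ppargc1a, 11.5 for Esrrg, 4.36 for Ppargc1b and 3.002 for Nrf1. The fusion and fission genes and Esrra, itself a DNA-binding receptor, thus stood above the other DNA-binding regulators and the coactivators. Neighbours in this order overlapped in their ranges over libraries, with 2 breaks: the lowest Dnm1l library (16.2 RPKM) lay above the highest Tfam library (15.0 RPKM), and the lowest Esrrg library (10.4 RPKM) above the highest Ppargc1b library (6.49 RPKM). Ppargc1a exceeded its paralog Ppargc1b in every library, the ranges being 8.67 to 15.2 RPKM and 2.84 to 6.49 RPKM. Esrra, the more abundant estrogen-related receptor by reads per length, ranged from 19.3 to 30.9 RPKM, and Esrrg from 10.4 to 13.9 RPKM.

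**Figure D1:**
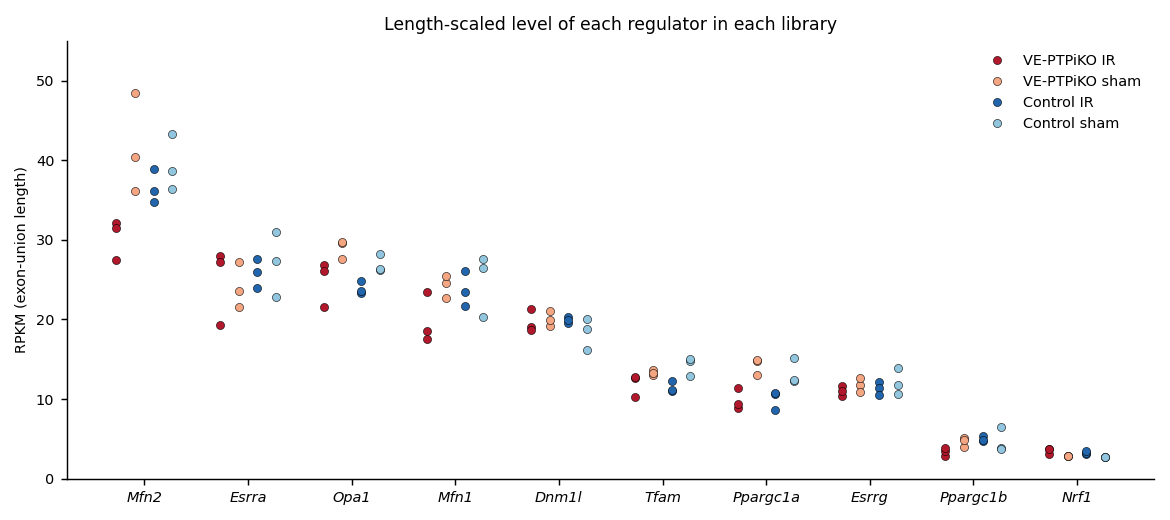
Length-scaled level in RPKM (vertical axis) of each regulator, ordered by its median, with 1 point per library coloured by group. Points of Mfn2, Esrra, Opa1, Mfn1 and Dnm1l lie at or above 16.2 RPKM and those of the other 5 genes at or below 15.2 RPKM.

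Ppargc1a had the largest fitted IR over sham difference of the 10 members in both genotypes, and it was lower in injured kidneys of both genotypes. It had 1040, 1332 and 1104 normalized read counts in VE-PTPiKO IR against 1532, 1738 and 1747 in VE-PTPiKO sham. In Control kidneys it had 1253, 1017 and 1263 after IR against 1443, 1785 and 1453 after sham. All 6 IR libraries lay below all 6 sham libraries. Group means were 1158 ± 153 in VE-PTPiKO IR, 1672 ± 121 in VE-PTPiKO sham, 1178 ± 139 in Control IR and 1560 ± 194 in Control sham (SD, n = 3 each). The fitted log2 difference of IR over sham was -0.53 ± 0.14 (SE) in VE-PTPiKO, 1.45-fold lower with adjusted p = 0.0981, and -0.40 ± 0.13 in Control, 1.32-fold lower with adjusted p = 0.0712, by limma over all genes. Neither comparison of 3 against 3 libraries passed the threshold of 0.05 by this test. In the authors' deposited table Ppargc1a was significant in both, with log2 fold changes of -0.502 in VE-PTPiKO (adjusted p = 0.00249) and -0.391 in Control (adjusted p = 0.00816). By limma it passed in 2 of 16 alternatives in VE-PTPiKO. These were without VE-PTPiKO IR replicate 3 (log2 -0.50, adjusted p = 0.0459) and in 1 model of all libraries (adjusted p = 0.0305). In Control it passed in 1 of 16, after a correction for transcript length (log2 -0.39, adjusted p = 0.0365). The highest adjusted p over the alternatives was 0.393 in VE-PTPiKO and 0.323 in Control.

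The response of all 12 libraries was then taken as the mean of both genotypes' IR over sham differences, a comparison chosen after the data were seen. In it Ppargc1a fell 1.39-fold (log2 -0.47 ± 0.10 SE, adjusted p = 0.00362 by limma), and this call held under all 21 alternatives run, with adjusted p between 0.00255 and 0.0165. The difference between the genotypes' responses was small beside its error, at log2 -0.13 with a 95% interval of -0.54 to 0.28.

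The other coactivator gave a different picture. Ppargc1b had 202, 248 and 275 normalized read counts in VE-PTPiKO IR against 286, 362 and 343 in VE-PTPiKO sham, so the groups did not overlap. In Control it had 386, 332 and 343 after IR against 271, 461 and 263 after sham, and these groups overlapped widely. The IR over sham difference was log2 -0.45 ± 0.18 in VE-PTPiKO (limma adjusted p = 0.263) and log2 0.14 ± 0.20 in Control (adjusted p = 0.743). After IR, all 3 VE-PTPiKO libraries lay below all 3 Control libraries, with a genotype difference of log2 -0.56 ± 0.20, which did not pass over all genes (adjusted p = 0.9999). The difference of the responses was log2 -0.60 ± 0.29, with a 95% interval of -1.22 to 0.03 and adjusted p = 0.9995. The highest Control sham library was its replicate 2, at 461, which is one of the 3 libraries rich in Malat1. Without that library the Control difference was log2 0.40 (adjusted p = 0.0744).

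**Figure D2:**
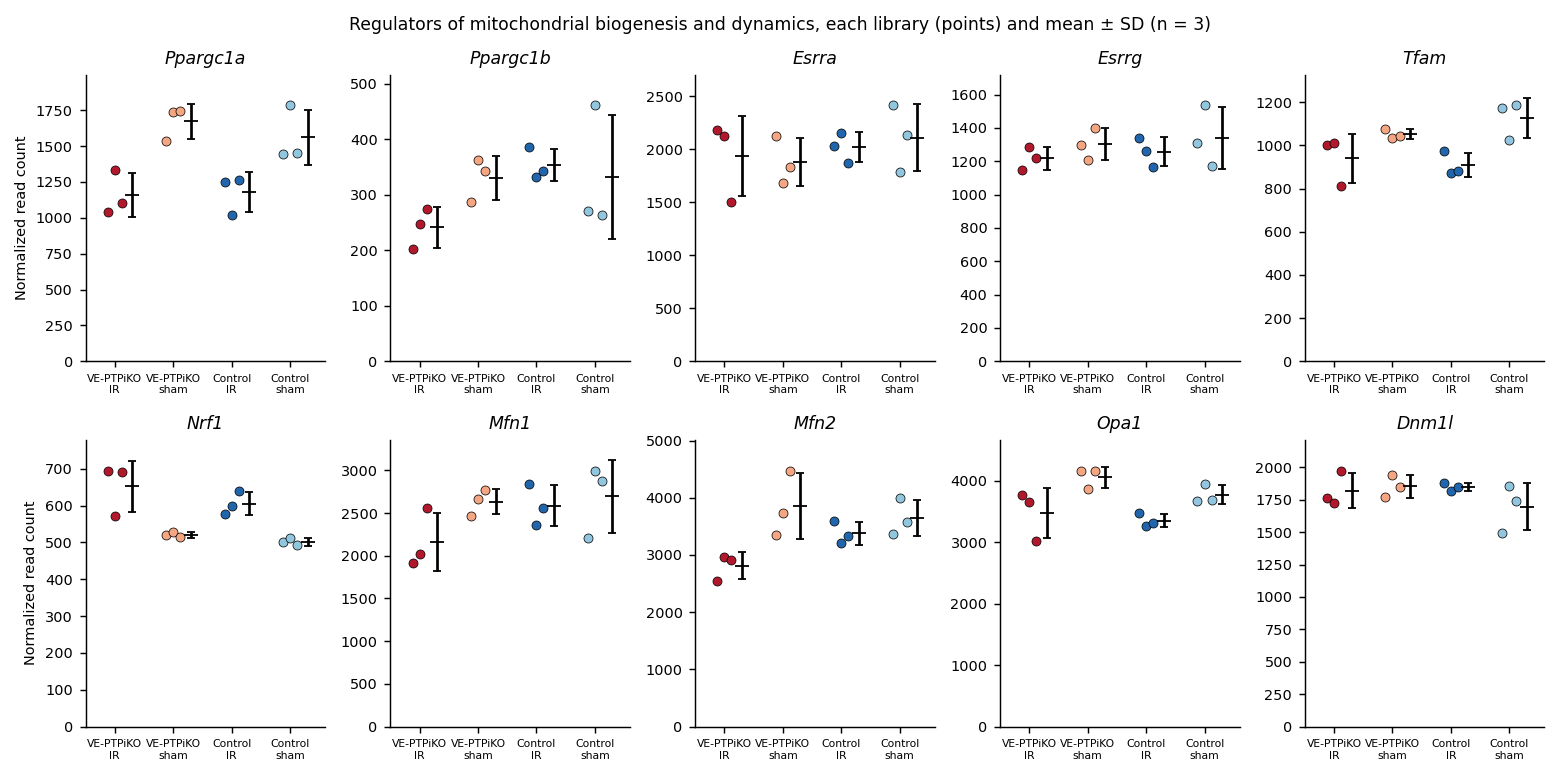
Normalized read counts (vertical axes, each starting at 0) of the 10 regulators in every library (points), with the mean ± SD of each group of 3 beside them. For Ppargc1a all IR points lie below all sham points, for Nrf1 all IR points lie above all sham points, and Esrra, Esrrg and Dnm1l overlap across the groups.

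Nrf1, the DNA-binding factor, was the only member with higher counts in every IR library than in every sham library. It had 695, 571 and 690 normalized read counts in VE-PTPiKO IR against 520, 528 and 513 in VE-PTPiKO sham. In Control it had 578, 598 and 640 after IR against 500, 511 and 492 after sham. The sham groups were tight, with means of 520.2 ± 7.1 in VE-PTPiKO and 501 ± 9.6 in Control (SD, n = 3 each). The IR over sham difference was log2 0.32 ± 0.14 in VE-PTPiKO (limma adjusted p = 0.319) and log2 0.27 ± 0.11 in Control (adjusted p = 0.153), neither past the threshold. Averaged over both genotypes, the comparison chosen after seeing the data, Nrf1 rose 1.23-fold (adjusted p = 0.0175, log2 0.30 ± 0.08 SE). Over the 21 alternatives the highest adjusted p was 0.0489. Nrf1 has the longest exon length of the members, 10282 bases. The 3 Malat1-rich libraries were the highest of their group for Nrf1 in 2 of 3 cases.

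Tfam, the mitochondrial DNA packaging factor whose gene NRF1 is known to activate, had lower values after IR, with no call by limma with all libraries kept. It had 1002, 1011 and 811 normalized read counts in VE-PTPiKO IR against 1078, 1033 and 1044 in VE-PTPiKO sham. In Control it had 974, 874 and 882 after IR against 1172, 1023 and 1186 after sham. All 6 IR libraries lay below all 6 sham libraries, by a narrow margin: the highest IR library had 1011 and the lowest sham library 1023. The difference was log2 -0.17 ± 0.14 in VE-PTPiKO (limma adjusted p = 0.645) and log2 -0.30 ± 0.11 in Control (adjusted p = 0.112), and averaged over the genotypes log2 -0.24 ± 0.08 (adjusted p = 0.0586). Tfam was significant for Control in the authors' deposited table (log2 -0.298, adjusted p = 0.0287) and not for VE-PTPiKO (log2 -0.151, adjusted p = 0.547). Without Control sham replicate 2, one of the Malat1-rich libraries, the Control difference was log2 -0.37 and passed (adjusted p = 0.0393), as did the average (log2 -0.27, adjusted p = 0.0482). Tfam passed in 2 of 16 alternatives for Control and 2 of 21 for the average, all of them without that library. For Control these 2 are the same fit, since it is the only Malat1-rich library of Control.

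The estrogen-related receptors showed no detectable difference after IR. Esrra had 2179, 2130 and 1506 normalized read counts in VE-PTPiKO IR against 2123, 1684 and 1836 in VE-PTPiKO sham. In Control kidneys Esrra had 2027, 2158 and 1874 after IR against 2416, 1782 and 2133 after sham, and the groups overlapped in both genotypes. Averaged over the genotypes its difference was log2 -0.01, with a 95% interval of -0.25 to 0.23, so a change of Ppargc1a's size lay outside it. Esrrg ranged from 1147 to 1284 in VE-PTPiKO IR, 1208 to 1402 in VE-PTPiKO sham, 1166 to 1339 in Control IR and 1170 to 1536 in Control sham, and its averaged difference was log2 -0.09 (95% interval -0.27 to 0.09). Of Esrra's exon sequence 3.74% is shared with Trmt112 on the other strand and with the microRNA gene Mir6990, and of Dnm1l's 4.67% with an antisense gene. The sources used here do not say whether counting used strand, so small differences of these genes are uncertain.

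Among the genes of membrane fusion, Mfn2 was lower after IR in VE-PTPiKO kidneys. It had 2537, 2970 and 2916 normalized read counts in VE-PTPiKO IR against 3343, 3734 and 4475 in VE-PTPiKO sham, and the groups did not overlap. In Control it had 3598, 3208 and 3335 after IR against 3363, 3997 and 3577 after sham, and the groups overlapped. The difference was log2 -0.45 ± 0.15 in VE-PTPiKO (limma adjusted p = 0.182) and log2 -0.10 ± 0.11 in Control (adjusted p = 0.630). The authors' deposited table lists Mfn2 as significant for VE-PTPiKO (log2 -0.429, adjusted p = 0.0207) and not for Control (log2 -0.104, adjusted p = 0.548). The difference between the responses, log2 -0.34 ± 0.18 with a 95% interval of -0.72 to 0.04, did not pass (adjusted p = 0.9995). After IR all VE-PTPiKO libraries lay below all Control libraries, at log2 -0.27 ± 0.12 (adjusted p = 0.9999). In the average of both genotypes, chosen after seeing the data, Mfn2 fell 1.21-fold (log2 -0.28 ± 0.09, adjusted p = 0.0417). That call was lost in 10 of 21 alternatives, at adjusted p between 0.0516 and 0.109. These were the fit without all 3 Malat1-rich libraries (0.0718) and the fits without any 1 library other than Control sham replicate 1, VE-PTPiKO sham replicate 1 or VE-PTPiKO IR replicate 3.

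Mfn1, the second mitofusin, had 1917, 2017 and 2554 normalized read counts in VE-PTPiKO IR against 2470, 2668 and 2766 in VE-PTPiKO sham, an overlap that came from VE-PTPiKO IR replicate 3. Without that library the VE-PTPiKO difference was log2 -0.42 and passed (limma adjusted p = 0.0416), against log2 -0.29 ± 0.14 with it (adjusted p = 0.388). This was the only 1 of 16 alternatives to pass, and the highest adjusted p among them was 0.773. In Control the values were 2845, 2366 and 2554 after IR against 2211, 2998 and 2874 after sham, a difference of log2 -0.05 ± 0.13. Opa1, the inner-membrane fusion GTPase, had 3770, 3650 and 3017 in VE-PTPiKO IR against 4153, 3866 and 4168 in VE-PTPiKO sham. Control kidneys had 3473, 3271 and 3312 after IR against 3672, 3953 and 3697 after sham. The groups did not overlap in either genotype, yet the differences of log2 -0.23 ± 0.14 in VE-PTPiKO, -0.17 ± 0.10 in Control and -0.20 ± 0.07 on average were small and did not pass (adjusted p = 0.489, 0.331 and 0.0798).

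The fission gene Dnm1l differed little across the study. It had 1761, 1726 and 1976 normalized read counts in VE-PTPiKO IR against 1771, 1945 and 1846 in VE-PTPiKO sham. Control kidneys had 1881, 1817 and 1852 after IR against 1496, 1853 and 1740 after sham, and the groups overlapped in both genotypes. Its difference was log2 -0.03 ± 0.12 in VE-PTPiKO and 0.13 ± 0.11 in Control, and the average of 0.05 had a 95% interval of -0.11 to 0.21. As a ratio of IR to sham that interval ran from 0.927 to 1.16.

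**Figure D3:**
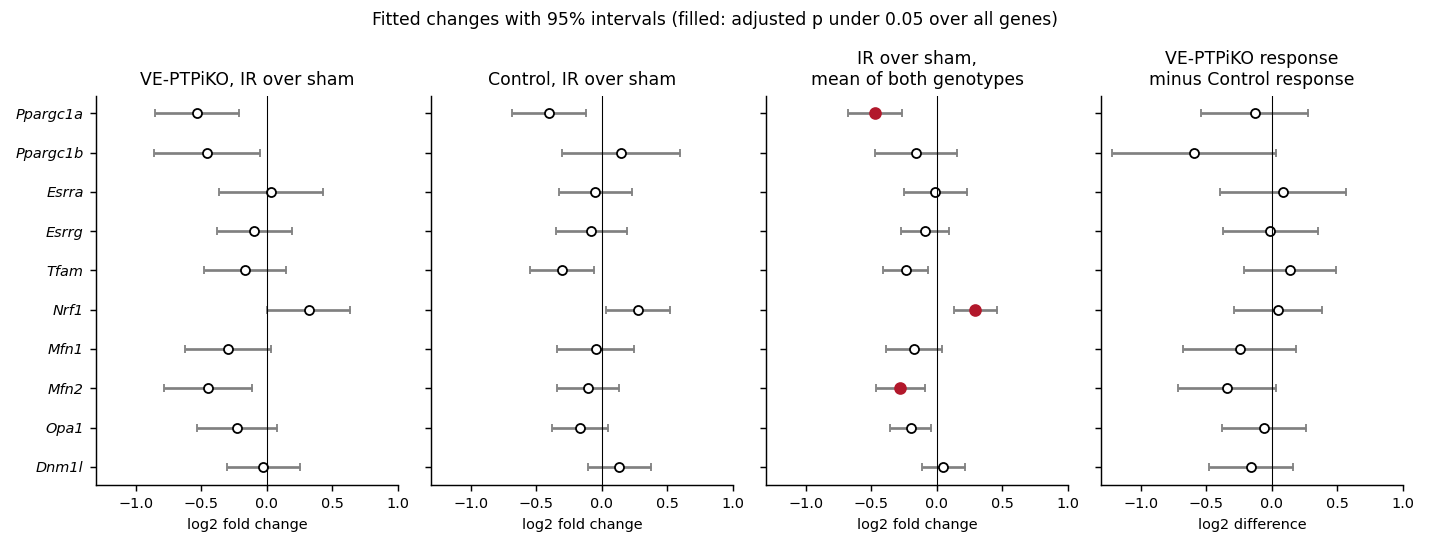
Fitted log2 differences (horizontal axes) with 95% intervals for each regulator in 4 comparisons, filled where the adjusted p over all genes was under 0.05. Filled points occur only in the average of both genotypes, for Ppargc1a and Mfn2 below 0 and Nrf1 above 0.

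Across the set, 0 of 10 members passed in IR over sham in VE-PTPiKO, where 2.71% of 16401 genes passed, and 0 of 10 in Control, where 11.5% of 16257 genes passed. At an unadjusted p under 0.05 these counts were 4 members, against 15.2% of genes, and 3 members, against 24.2% of genes. By edgeR's quasi-likelihood test they were also 0 and 0. Averaged over the genotypes 3 of 10 passed, with 1 up and 2 down, against 18.3% of 16339 genes (10.2% up and 8.05% down); with 10 genes this share is close to the background. The median log2 difference of the 10 was -0.20 in VE-PTPiKO and -0.07 in Control, against -0.01 in both for all genes tested. Groups that did not overlap were found for 6 members in VE-PTPiKO, 1 higher and 5 lower, against 20.6% of genes (10.6% higher and 10% lower). In Control they were found for 4 members, 1 higher and 3 lower, against 29.4% of genes (16% higher and 13.4% lower). The 4 of Control, namely Ppargc1a, Tfam and Opa1 lower and Nrf1 higher, were among the 6 of VE-PTPiKO in the same direction, and Ppargc1b and Mfn2 were the other two. The share of all genes without overlap in the same direction in both genotypes was not computed. When 6 IR libraries were set against 6 sham libraries, 3 members did not overlap, 1 higher and 2 lower, against 10% of genes (5.99% higher and 4.03% lower).

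Between the genotypes no gene passed, and so no member. After IR 2 members, Ppargc1b and Mfn2, were lower in VE-PTPiKO without overlap, against 9.16% of genes (3.97% higher and 5.19% lower), and the median over members was log2 -0.04, against -0.02 over all genes. After sham 1 member, Nrf1, was higher without overlap, against 4.87% of genes (2.5% higher and 2.36% lower), by a log2 difference of only 0.05. By limma 0% of 16339 genes passed in each genotype comparison and in the interaction, and edgeR also called 0. Unadjusted p was under 0.05 for 709 genes after IR, 267 after sham and 432 in the interaction, and for 2, 0 and 0 members. The members' genotype differences had standard errors of 0.10 to 0.21 on the log2 scale.

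Cell type markers were read beside these results. The summed level of 7 monocyte and macrophage markers was 195 to 216 CPM in VE-PTPiKO IR, 140 to 149 CPM in VE-PTPiKO sham, 214 to 222 CPM in Control IR and 137 to 163 CPM in Control sham, so it was higher in IR, with 2 of 7 markers called upward in VE-PTPiKO and 3 of 7 in Control. The 3 red blood cell markers found summed to 35.3 to 109 CPM in VE-PTPiKO IR, 19.0 to 31.5 CPM in VE-PTPiKO sham, 66.3 to 134 CPM in Control IR and 17.8 to 35.2 CPM in Control sham. Of the 2 tested, 0 passed in VE-PTPiKO (median log2 1.496) and both rose in Control (median log2 1.90). The 6 neutrophil markers summed to 10.3 to 20.6 CPM in VE-PTPiKO IR, 7.14 to 10.4 CPM in VE-PTPiKO sham, 13.4 to 33.7 CPM in Control IR and 6.25 to 12.6 CPM in Control sham, with 0 of 6 called in VE-PTPiKO (median log2 0.76) and 2 of 6 upward in Control (median log2 1.13). The summed level of 10 proximal tubule markers was 40850 to 43720 CPM in VE-PTPiKO IR, 40260 to 42770 CPM in VE-PTPiKO sham, 38050 to 42930 CPM in Control IR and 44970 to 46430 CPM in Control sham. This sum, in which abundant markers weigh most, was thus lower after IR in Control without overlap, while in VE-PTPiKO it overlapped. Control sham also lay above VE-PTPiKO sham in the sum. The median over the single markers was further below 0 in VE-PTPiKO (log2 -0.27) than in Control (log2 -0.03). Of the 10 markers 0 passed in either genotype. Of thick ascending limb, distal tubule and collecting duct, podocyte and endothelial markers 0 passed in VE-PTPiKO. In Control 1 of 5 thick limb and 1 of 8 distal markers fell. There 1 of 8 endothelial markers rose and 0 of 5 podocyte markers passed. Endothelial markers summed to 841 to 918 CPM in VE-PTPiKO sham, above the 760 to 826 CPM of Control sham. After IR the sums overlapped, at 812 to 906 CPM in VE-PTPiKO and 696 to 866 CPM in Control. The part of these differences in the members' values was not tested, and in whole kidney fewer cells of a type and less RNA per cell cannot be told apart. The 7 markers of muscle and brown fat, tissues rich in PGC-1 alpha, summed to 0.925 to 8.61 CPM over all libraries. Ckm was at or near 0, and the highest sum was in Control sham. Ucp1 of this list was at 4.23 CPM in Control sham replicate 2, against 0.370 and 1.16 CPM in replicates 1 and 3. It reached 2.37 CPM in Control IR replicate 3. Control sham replicate 2 also had the highest Ppargc1a and Ppargc1b counts of all libraries. The part of such tissue in these values was not tested.

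The libraries rich in Malat1 stood apart for several members in a fixed direction within their groups, a pattern noticed after the values were seen. Esrra and Tfam were lowest of their group in 3 of 3 such libraries, and Ppargc1b and Dnm1l were highest of their group in 3 of 3. The largest departures were log2 0.53 for Ppargc1b in Control sham replicate 2 and log2 -0.34 for Esrra in VE-PTPiKO IR replicate 3. Ppargc1a departed by log2 0.20, 0.06 and -0.06 in the 3 libraries. Rank correlation between a gene's departure and its exon length, across 16332 genes of a library that are not independent replicates, was 0.33 in Control sham replicate 2, 0.19 in VE-PTPiKO sham replicate 2 and 0.34 in VE-PTPiKO IR replicate 3, and between -0.32 and 0.20 in the other 9. Without the 3 libraries the IR over sham differences in VE-PTPiKO were log2 -0.47 for Ppargc1a, -0.48 for Ppargc1b, 0.13 for Esrra, -0.15 for Esrrg, -0.07 for Tfam, 0.29 for Nrf1, -0.41 for Mfn1, -0.49 for Mfn2, -0.16 for Opa1 and -0.05 for Dnm1l, and none passed. In Control they were -0.30, 0.40, -0.17, 0.02, -0.37, 0.29, 0.04, -0.04, -0.13 and 0.20 in the same order of genes, and Tfam passed. Averaged over the genotypes, Ppargc1a (log2 -0.39, limma adjusted p = 0.0165), Nrf1 (log2 0.29, adjusted p = 0.0363) and Tfam (log2 -0.22, adjusted p = 0.0450) passed, and Mfn2 did not. The part of library state in the members' spread was not tested. The pooled spread within groups ran from 0.09 for Nrf1 to 0.28 for Ppargc1b (SD of log2 values).

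**Figure D4:**
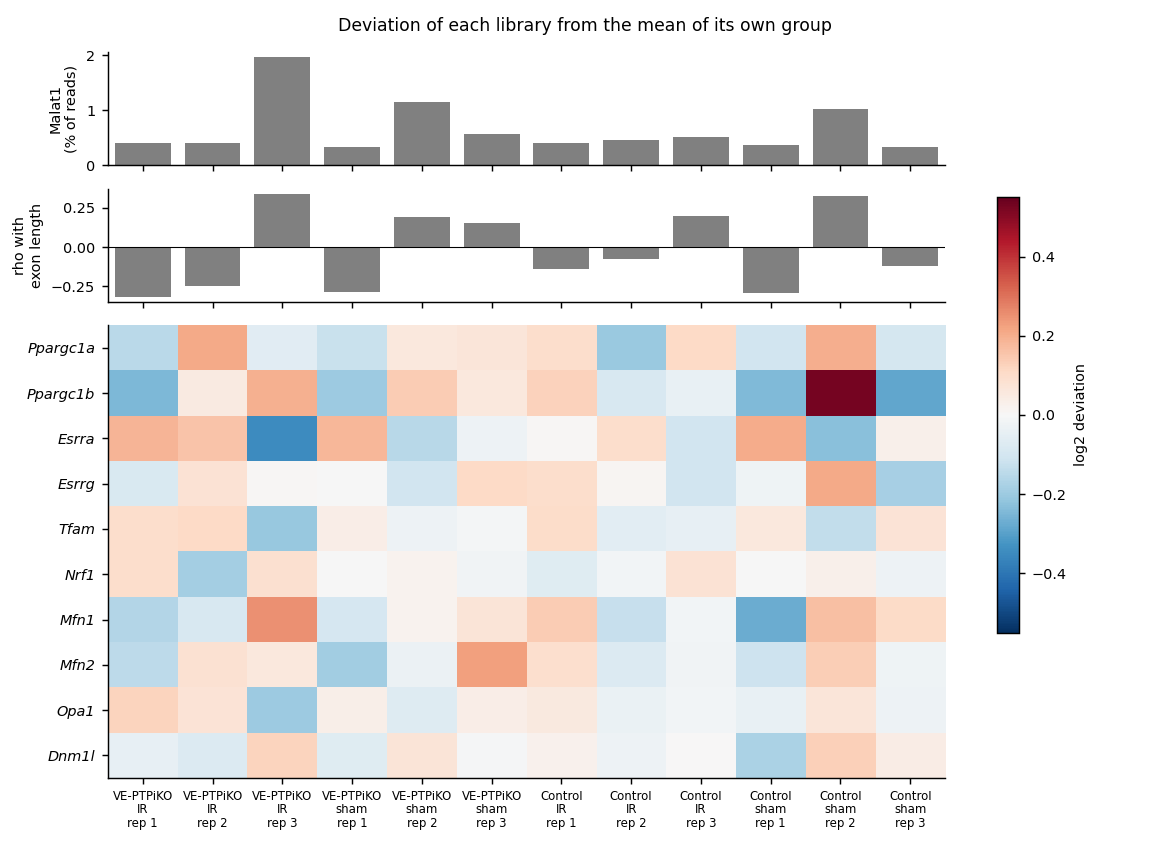
Log2 departure of each regulator from the mean of its own group in each library (colour, bottom panel), below the share of reads from Malat1 in percent (top) and the rank correlation of all genes' departures with exon length (middle). Ppargc1b is highest and Esrra lowest of their groups in the 3 libraries where Malat1 exceeds 1% of reads.

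Of the 6 lists of genes around the members, the co-regulators of biogenesis held the most calls after IR. Of 19 such genes 0 rose and 3 fell in VE-PTPiKO, where 1.92% of all genes rose and 0.793% fell, and 4 rose and 4 fell in Control, where 7.48% and 4.02% did. Their median log2 difference was -0.18 in VE-PTPiKO and -0.07 in Control. Esrrb, the third estrogen-related receptor, fell in both. It had 425, 689 and 621 normalized read counts in VE-PTPiKO IR against 1204, 1515 and 1392 in VE-PTPiKO sham. Control kidneys had 546, 452 and 698 after IR against 1276, 1506 and 1234 after sham. This was 2.40-fold lower in VE-PTPiKO (log2 -1.26 ± 0.19, limma adjusted p = 0.0112) and 2.39-fold lower in Control (log2 -1.26 ± 0.16, adjusted p = 0.000483). The Control call held in all 16 alternatives, and the VE-PTPiKO call was lost without VE-PTPiKO sham replicate 2 (adjusted p = 0.0615) or replicate 3 (0.0753). Esrrb was thus the one receptor of its family whose call passed, beside the Esrra and Esrrg values above.

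Lpin1, a phosphatidate phosphatase that also coactivates PPAR alpha with PGC-1 alpha, fell 1.84-fold in VE-PTPiKO (mean 2604 ± 506 against 4743 ± 372 in sham, adjusted p = 0.0267) and 1.70-fold in Control (2350 ± 343 against 4053 ± 928, adjusted p = 0.0144). Its VE-PTPiKO call was lost without any 1 library except VE-PTPiKO IR replicate 3 (adjusted p up to 0.153), and its Control call without Control IR replicate 2 (0.0728) or replicate 3 (0.0592). Nrip1, the corepressor RIP140 that opposes PGC-1 alpha, rose 2.05-fold in Control, with a mean of 3015 ± 38 after IR against 1493 ± 286 after sham (adjusted p = 0.000651). In VE-PTPiKO its means were 2568 ± 711 after IR and 1840 ± 421 after sham (log2 0.47, adjusted p = 0.399). Ppard, the receptor PPAR delta, rose 2.07-fold in Control (389 ± 76 after IR against 187 ± 26 after sham, adjusted p = 0.00347), and in VE-PTPiKO its means were 260 ± 60 and 221 ± 66 (log2 0.26, adjusted p = 0.722). Both Control calls held in all 16 alternatives. That these genes passed in one genotype does not show a difference between the genotypes, since 0 genes passed the interaction test. The other 4 called in Control, outside the naming rule, were Pprc1 and Gabpb1 upward and Rxra and Sirt3 downward. Rxra was also called in VE-PTPiKO, at log2 -0.80 (limma adjusted p = 0.0453) against log2 -0.50 in Control (adjusted p = 0.0153). It was not recomputed under the alternatives.

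Mitochondrial DNA maintenance, dynamics and import genes beyond the 10 members gave few calls. Among all genes tested 1.92% rose and 0.793% fell in VE-PTPiKO, and 7.48% rose and 4.02% fell in Control. Of 18 genes of mitochondrial DNA maintenance and transcription 0 passed in VE-PTPiKO and 1 fell in Control, the polymerase subunit Polg2 (79.2 ± 15.4 after IR against 128 ± 3.6 after sham, adjusted p = 0.0456), a call kept in 6 of 16 alternatives and among single libraries left out only without Control IR replicate 1. Of 29 tested genes of fusion, fission, cristae and transport 0 passed in either genotype, with median log2 differences of -0.07 in VE-PTPiKO and -0.08 in Control. They include the Drp1 adaptors Fis1 (log2 0.01 in VE-PTPiKO and -0.20 in Control) and Mff (0.09 and 0.00). Averaged over the genotypes 3 of the 29 fell, where 8.05% of all genes did, namely Miga1 (log2 -0.28), Miga2 (-0.23) and the mitochondrial transport GTPase Rhot1 (-0.27), named after their values were seen and not recomputed under the alternatives. Of 15 import, chaperone and protease genes 0 passed in VE-PTPiKO and 1 rose in Control, the matrix co-chaperonin Hspe1 (1091 ± 114 after IR against 741 ± 128 after sham, adjusted p = 0.0291). Its call was lost when Control IR replicate 1 (0.0970) or 2 (0.147) or Control sham replicate 3 (0.0558) was left out, and in 1 model of all 12 libraries (0.279). In VE-PTPiKO it was at log2 0.66 (adjusted p = 0.403), and passed in 1 of 16 alternatives, without VE-PTPiKO IR replicate 3 (log2 1.03, adjusted p = 0.0232).

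**Figure D5:**
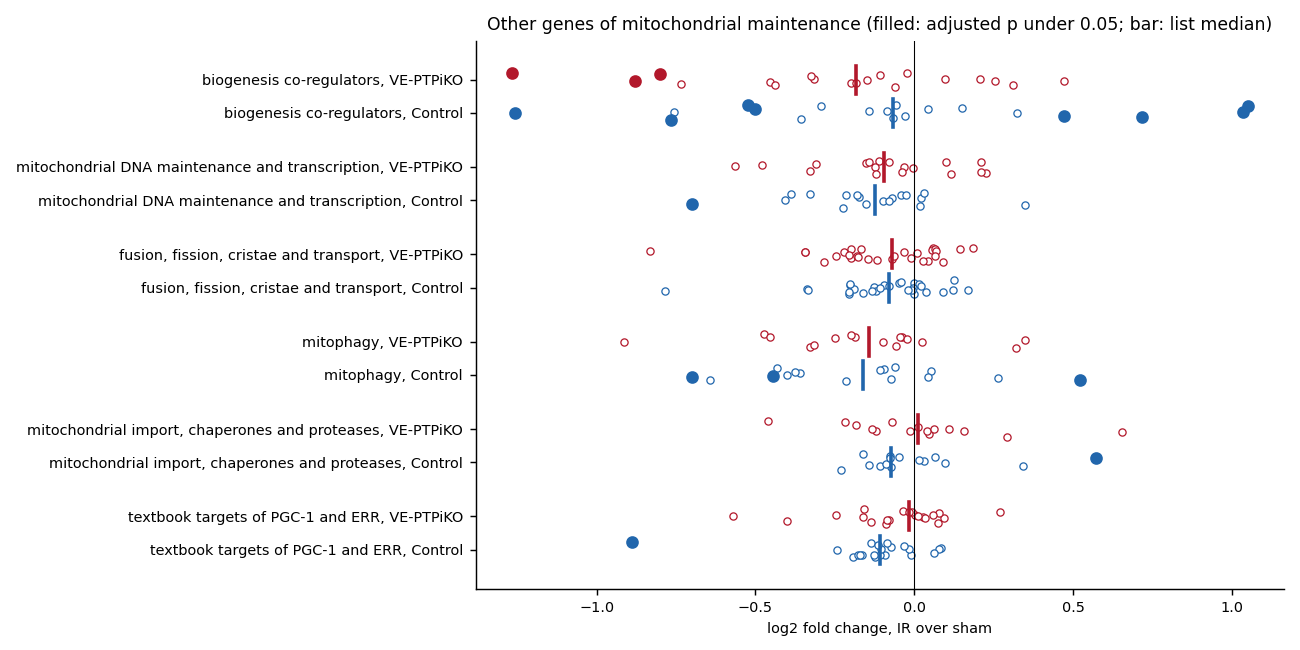
Log2 fold change of IR over sham (horizontal axis) for each tested gene of 6 lists, VE-PTPiKO above Control, filled where adjusted p was under 0.05, with a bar at the list's median. Filled points are most frequent among the co-regulators, and the medians lie between -0.19 and 0.02.

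The removal of mitochondria, mitophagy, was read from a further list. Of 16 tested mitophagy genes 0 passed in VE-PTPiKO, where 2.71% of all genes did. In Control 1 rose and 2 fell, where 7.48% and 4.02% of all genes did. Ulk1, a kinase that starts autophagy, fell 1.62-fold in Control (896 ± 47 after IR against 1479 ± 313 after sham, adjusted p = 0.00989), a call lost only in the model of all 12 libraries (0.106). In VE-PTPiKO its means were 939 ± 418 and 1693 ± 355 (log2 -0.91, adjusted p = 0.151). It passed there in 4 of 16 alternatives, among them without VE-PTPiKO IR replicate 3 (log2 -1.25, adjusted p = 0.00352). The mitophagy receptor Bnip3l fell 1.36-fold in Control (961 ± 48 against 1315 ± 140, adjusted p = 0.0296) and the cargo adaptor Sqstm1 rose 1.44-fold (31825 ± 1988 against 22396 ± 3818, adjusted p = 0.0453). Leaving out 1 library ended the Bnip3l call in each case but Control sham replicate 2, with adjusted p up to 0.162, and the Sqstm1 call in each case but Control sham replicate 3, with adjusted p up to 0.180.

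The nuclear genes that PGC-1 and the estrogen-related receptors are known to drive gave few calls. Of all genes tested 2.71% passed in VE-PTPiKO and 11.5% in Control, so few calls are near the background for a list of 21 genes. Of 21 textbook targets, among them subunits of the respiratory chain and enzymes of the citrate cycle, 0 passed in VE-PTPiKO and 1 fell in Control, with median log2 differences of -0.02 and -0.11 against -0.01 for all genes tested. The one called was Pdk4, the kinase that shuts pyruvate dehydrogenase and that PGC-1 alpha induces, which fell 1.85-fold in Control (13208 ± 5074 after IR against 23862 ± 5305 after sham, adjusted p = 0.0408). In VE-PTPiKO its means were 17026 ± 2663 after IR and 27144 ± 12135 after sham (adjusted p = 0.451). The Control call of Pdk4 was lost by edgeR (0.0512). It was also lost when Control IR replicate 2 (0.190) or 3 (0.127), or Control sham replicate 2 (0.107) or 3 (0.149), was left out. In the average of both genotypes, chosen after seeing the data, 10.2% of all genes rose and 8.05% fell, and the other lists stood as follows. Of 19 co-regulators 3 rose and 5 fell, of 18 mitochondrial DNA genes 0 rose and 3 fell, and of 16 mitophagy genes 1 rose and 5 fell. Of 15 import genes 0 passed, and of 21 targets 0 rose and 2 fell. The median log2 differences of these lists were -0.13, -0.11, -0.19, -0.02 and -0.06 in that order, against -0.01 for all genes. The mitochondrial DNA genes that fell were the mitochondrial RNA polymerase Polrmt (log2 -0.44), Polg2 (-0.64) and the mRNA-binding protein Lrpprc (-0.26). The mitophagy genes that fell were the kinase Pink1 (log2 -0.44), Bnip3l (-0.35), Ulk1 (-0.81), Map1lc3b (-0.34) and Gabarapl1 (-0.42), the last 2 being ATG8-family proteins of the autophagosome membrane, and Sqstm1 rose (0.42). The targets that fell were Pdk4 (log2 -0.73) and the citrate cycle enzyme subunit Ogdh (-0.28). The averaged calls of Polg2, Ulk1 and Sqstm1 held in all 21 alternatives. That of Pdk4 was lost in 10 of 21 (adjusted p = 0.0565 to 0.114), among them the fits without any 1 library other than replicate 1 of Control sham, Control IR or VE-PTPiKO sham or replicate 3 of VE-PTPiKO IR. That of Bnip3l was lost without VE-PTPiKO sham replicate 3, Control IR replicate 2, or Control sham replicate 1 or 3 (adjusted p up to 0.0598). Polrmt, Lrpprc, Pink1, Map1lc3b, Gabarapl1 and Ogdh were named after their values were seen and not recomputed under the alternatives.

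The samples were taken 5 h after surgery, and no later time was analysed here.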

How the data were processed

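The submitters' processing notes name FastQC, STAR, HTSeq, DESeq2 and genome mm10, without versions. 1 table was deposited per genotype. Its deposited library columns hold a normalized signal. Each library's values are counts over a single scaling factor, as the values showed: 100.0% became whole reads within a tolerance of 0.02. The deposited log2 fold changes, their standard errors, Wald scores where given, and p-values are the authors' own, per the file headers. Of 23493 lines 23286 genes were kept, after removing repeated identical lines of 182 identifiers. The 2 single-cell samples, taken 24 h after injury, were not used.

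IR over sham was tested within each table with limma 3.58.1 (R 4.3.3, with a trend) after adding 1 and taking log2. Genes needed a mean value of 1 or more, with Benjamini-Hochberg adjustment over all genes and a threshold of 0.05. Fold changes on this scale understate those of low genes. Genotype contrasts, the interaction and the averaged response used the recovered reads of all 12 libraries, scaled together by median-of-ratios over 14828 genes (factors 0.8896 to 1.2085). The same scaled values are the normalized read counts printed. RPKM used GENCODE M21 exon length. The test was checked on simulated counts. Alternatives were edgeR 4.0.16 quasi-likelihood, TMM, pseudocounts of 5 and 0.1, no filter or a mean of at least 10, a replicate block, leaving out each library or the 3 Malat1-rich ones, a transcript length correction and, for each table, 1 model of all libraries. In the Control table, leaving out the Malat1-rich libraries and leaving out Control sham replicate 2 are the same fit, counted under both settings. The members and gene lists were chosen with earlier results of these data known. Beyond the 10 members, the genes named are the 2 highest and 2 lowest among those called in Control per list. A rule naming genes of like pattern applied to called members of the within-table comparisons and so named none.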

Additional observations from a re-analysis of the deposited data

Results flagged for a closer look

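Ppargc1b libraries lay on opposite sides of their sham means in the genotypes, in Control by a margin of under 1 count for 1 library. All 3 VE-PTPiKO IR libraries (202, 248 and 275 normalized read counts) lay below the mean of VE-PTPiKO sham (330 ± 39), and all 3 Control IR libraries (385.5, 332.5 and 343.1) lay above the mean of Control sham (331.7 ± 112; SD, n = 3 each). The Control difference ran from log2 0.003 to 0.405 over the alternatives and did not pass in any of the 16. The test of the difference between the genotypes, log2 -0.595 ± 0.29 by limma, did not pass over all genes (adjusted p = 0.9995).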

How the results depend on the processing

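Of the members' results, 1085 of those recomputed under an alternative kept their direction and their side of the threshold. Another 9 passed newly, 10 no longer passed, all of them Mfn2 averaged over the genotypes, and 56 changed sign with neither value past the threshold and none above 0.124 in size on the log2 scale. The number of members called in Control was 1 without the Malat1-rich libraries (Tfam) and 1 with the length correction (Ppargc1a), against 0. In VE-PTPiKO it was 2 in 1 model of all libraries (Ppargc1a, adjusted p = 0.0305, and Mfn2, 0.0488). Genes called in VE-PTPiKO were 853 without the Malat1-rich libraries, 748 with the length correction and 1019 in 1 model, against 445, and 1 gene passed between genotypes in sham without the Malat1-rich libraries. Leaving out 1 library gave 126 to 1925 genes and 0 to 2 members in VE-PTPiKO and 862 to 2010 genes and 0 to 1 members in Control. It gave 0 to 1 genes and 0 members in each genotype contrast and the interaction, and 2132 to 4096 genes and 2 to 3 members on average. The cause was not tested.

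Sign changes by setting were as follows. Without the Malat1-rich libraries, log2 was 0.023 for Esrrg and 0.037 for Mfn1 in Control, 0.124 and 0.052 for the same genes between genotypes in sham, and 0.006 for Ppargc1a and 0.096 for Esrra between genotypes after IR. With the length correction it was 0.001 for Dnm1l in VE-PTPiKO, -0.026 for Nrf1 between genotypes in sham, and 0.025 for Esrrg and 0.002 for Opa1 in the interaction. By edgeR it was -0.02 for Ppargc1b in sham and 0.021 for Esrrg in the interaction, and with TMM 0.014 for Esrrg in the interaction. Leaving out 1 library, ranges that crossed 0 were -0.167 to 0.051 (Esrra), -0.171 to 0.023 (Esrrg) and -0.184 to 0.037 (Mfn1) in Control, and -0.064 to 0.206 (Esrra) and -0.084 to 0.012 (Dnm1l) in VE-PTPiKO. Between genotypes in sham they were -0.104 to 0.301 (Ppargc1b), -0.124 to 0.072 (Esrrg), -0.158 to 0.063 (Mfn1) and -0.041 to 0.168 (Mfn2). After IR they were -0.131 to 0.049 (Ppargc1a), -0.098 to 0.003 (Esrrg), -0.013 to 0.144 (Tfam), -0.014 to 0.144 (Opa1), -0.089 to 0.01 (Dnm1l) and -0.171 to 0.093 (Esrra). In the interaction they were -0.014 to 0.253 (Esrra), -0.116 to 0.082 (Esrrg), 0 to 0.141 (Nrf1) and -0.12 to 0.037 (Opa1), and on average -0.069 to 0.074 (Esrra).

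Libraries with the same replicate number did not deviate together (correlations of -0.253 to 0.301), so the numbers were not taken as pairs. With a replicate block, 604 genes passed in VE-PTPiKO, 1805 in Control and 3056 on average, with 0, 0 and 3 members.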
